A study of Arabidopsis thaliana with 24 samples.

Results

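The mitochondria-encoded genes of Arabidopsis thaliana were taken as all rows of the expression table whose identifier begins with ATMG, which gave 98 of 23826 rows. They were measured by RNA sequencing of total RNA from seeds of 2 genotypes of the Col ecotype, wild type (called Col) and ref6c, at 0, 6, 24 and 48 h of imbibition, with 3 libraries for each of the 8 combinations of genotype and time and 24 libraries in all. REF6 takes methyl groups off lysine 27 of histone H3, which lifts the repressive H3K27me3 mark, and the study followed transcription in germinating seeds with and without it. The labels describe seeds stored dry at room temperature for months after harvest, then sown on Murashige and Skoog medium diluted by 1/2 in long days at about 22 °C. The growth protocol given with every sample names seeds of ref6-1;REF6-HA, a line that none of the sample names or genotype entries carries, so the genotype of each library rests on its name. REF6 itself was at 35.8 ± 3.67 TPM (SD, n = 3) in Col at 6 h and at 14.4 ± 0.892 TPM in ref6c at 6 h, and it was lower in all 3 ref6c libraries than in all 3 Col libraries at each time.

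Plant mitochondria keep a small genome of their own. It codes for some subunits of the respiratory complexes and of the ATP synthase, for part of the cytochrome c maturation machinery, for ribosomal proteins and for many open reading frames of no known role, while most mitochondrial proteins are encoded in the nucleus, made in the cytosol and imported. Mitochondrial genes are transcribed by phage-type RNA polymerases imported from the cytosol, the transcripts are spliced and edited, and several genes, among them nad1, nad2 and nad5, are transcribed in separate parts that are joined by trans-splicing. In a dry seed the mitochondria are poorly developed, and they mature during imbibition. H3K27me3 is a mark of nuclear chromatin, and mitochondrial DNA has no histones.

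The unit is TPM, the number of reads per base of a gene's span scaled to the same total in each library, so levels are per length. TPM values multiplied by a span gave whole reads, which allowed the number of reads and the span of the ATMG rows to be recovered. Of the 98 rows, 29 could be given a gene name, 14 by the sequence of a nuclear copy that the reference annotation ties to the identifier, 8 because their recovered span equals that of 1 named gene in the RefSeq mitochondrial genome, and 7 because a span of at least 1000 bases lies within 5 bases of exactly 1 named gene. The reference does not carry the ATMG identifiers of its mitochondrial genes, so the last 15 names rest on length only. The length route could be checked against the sequence route in 7 rows: it gave the same name for 5 of 5 named genes and for 0 of 2 open reading frames, so open reading frames were not named by length. The other 69 rows are described by identifier.

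A large part of the mitochondrial genome is also present on nuclear chromosome 2. In the TAIR10.1 reference 72.2% of the 367808 bases of the mitochondrial genome had a copy of at least 1000 bases and at least 95% identity there, with a mean identity of 99.9% over 17 alignments, between chr2:3239038-3509765. The reference annotation names a chromosome 2 copy for 46 of the 98 rows, a gene for 39 of them and only a pseudogene for the other 7. The coding sequence of AT2G07671, noted as a copy of ATMG01080 (atp9, the ring subunit of the ATP synthase), lies at chr2:3251856-3252113 on the minus strand and has 258 bases, none of which differs from the mitochondrial sequence. The coding sequence of AT2G07673, a copy of ATMG01030, has 321 bases on the plus strand, of which the first 300 are printed (chr2:3266578-3266877), and 1 of the 321 differs, T140C, counted from 1 at the first coding base with the nuclear base first. Both are printed because they show how little sequence separates a mitochondrial row from its nuclear copy; the single capital marks the base that differs, and the sequences are from the RefSeq assembly TAIR10.1.
AT2G07671: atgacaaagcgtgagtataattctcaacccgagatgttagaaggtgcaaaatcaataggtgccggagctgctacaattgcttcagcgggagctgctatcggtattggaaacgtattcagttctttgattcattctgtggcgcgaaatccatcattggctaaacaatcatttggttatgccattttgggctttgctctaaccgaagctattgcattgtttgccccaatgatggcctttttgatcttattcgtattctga
AT2G07673: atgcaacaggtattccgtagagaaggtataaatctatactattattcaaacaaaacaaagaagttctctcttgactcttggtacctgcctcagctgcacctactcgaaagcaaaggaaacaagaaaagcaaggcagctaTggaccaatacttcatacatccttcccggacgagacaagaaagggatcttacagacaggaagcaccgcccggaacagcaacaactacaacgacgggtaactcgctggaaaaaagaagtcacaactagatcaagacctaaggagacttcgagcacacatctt

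Reads that cover no differing base cannot be told apart by sequence, and how reads with several matches were counted is not given in the sources used here. Over the 24 libraries ATMG01080 held 516 reads and AT2G07671 held 630. For ATMG01030 the order was the opposite, with 129 reads against 4 at AT2G07673. Across the 38 pairs of a row and a copy that are both in the table, the chromosome 2 locus held more reads in 19 and the mitochondrial row in 19. Of the 34 copies aligned over their whole coding length, 23 were identical to the mitochondrial sequence and the other 11 differed at 1 or 2 bases. The 39 rows with a copy noted as a gene held 7.81% of all ATMG reads, and the 7 with only a noted pseudogene held 0.155%. Another 7.06% came from 5 rows without a note whose named gene is at least 99% covered by chromosome 2, namely nad7, nad5 part 1, nad1 part 3, nad4 and ccmFN1, all named by length. The 10 rows whose named gene, by length, has no such copy, among them rps3, cox1 and cox2, held 52.9%. The last 32.1% came from 37 rows with neither note nor name, for which cover by chromosome 2 was not determined. The part of multiply matching reads in these values was not tested.

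**Figure D1:**
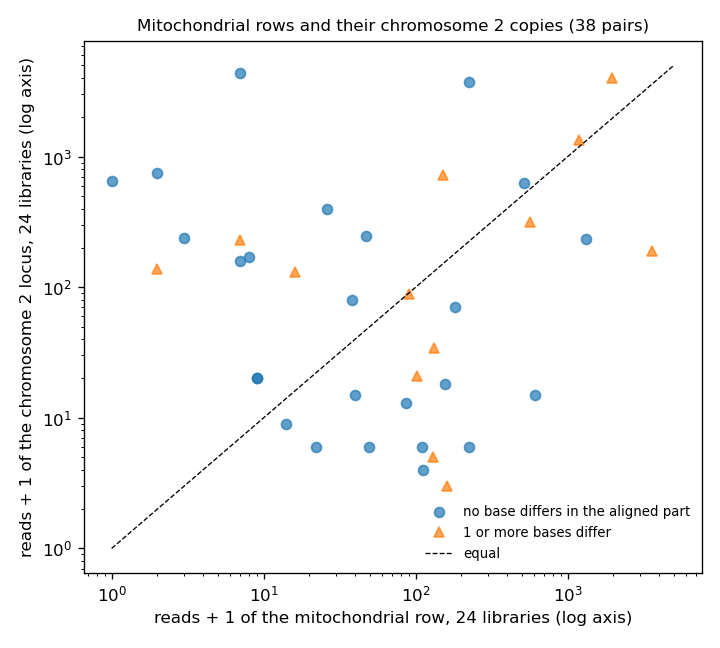
Each of the 38 points is a mitochondrial row and its noted chromosome 2 copy, with the reads of the row (x axis) and of the nuclear locus (y axis) summed over 24 libraries, plus 1, on log axes; circles are pairs with no differing base in the aligned part and triangles pairs with 1 or more. The points lie on both sides of the dashed line of equal reads, 19 above and 19 below it.

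The rows were few in reads in every library. The libraries held 16659267 to 19374865 recovered reads, of which 3106 to 9956 came from ATMG rows. The share of reads was lowest in Col at 48 h, replicate 1, at 0.0165% (95% exact binomial interval 0.0159 to 0.0170%), and highest in ref6c at 0 h, replicate 1, at 0.0563% (0.0552 to 0.0574%); such intervals cover counting error only. Whether RNA was selected for poly(A) tails is not given in the sources used here. Mature plant mitochondrial transcripts mostly lack stable poly(A) tails. Since the samples are bulk seed RNA, fewer mitochondria or cells and less RNA per mitochondrion cannot be told apart.

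The number of ATMG rows above 0 was highest at 6 h in both genotypes. In Col it was 74, 68 and 66 in the 3 libraries at 0 h, 84, 83 and 80 at 6 h, 62, 63 and 67 at 24 h, and 58, 63 and 63 at 48 h. In ref6c it was 68, 64 and 68 at 0 h, 86, 80 and 84 at 6 h, 65, 66 and 67 at 24 h, and 62, 63 and 60 at 48 h. All 6 libraries at 6 h were above the other 18, and the genotypes overlapped at every time. The rows ATMG00440 and ATMG01180 were at 0 in all 24 libraries, without a counted read. Taken alone, a library with 0 reads allows an expected count of up to about 3. The filter of 1 TPM in at least 3 libraries was passed by 69 rows; 24 of these passed only through their 6 h libraries and had to be high there, and 45 would have passed without them. Just inside the filter were ATMG00550, ATMG00570, ATMG01020 and ATMG01240, each at 1 TPM in 3 libraries, and just outside it ATMG01150, in 2 libraries. The 29 rows that did not pass had at most 1.74 TPM in any library.

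The summed TPM of the 98 rows was also highest at 6 h, between 0.0416 and 0.156% of all TPM over the 24 libraries. In Col the sum was 767.3, 940.5 and 833.4 TPM at 0 h, 1279, 1513 and 1385 TPM at 6 h, 436.2, 421.4 and 617.4 TPM at 24 h, and 518.2, 456.1 and 466.2 TPM at 48 h. In ref6c it was 1056, 850.8 and 874.5 TPM at 0 h, 1438, 1541 and 1563 TPM at 6 h, 587.4, 690.5 and 603.5 TPM at 24 h, and 416.2, 529.3 and 561.6 TPM at 48 h. In both genotypes the 6 h libraries lay above those of 0 h and of 24 h with no overlap. From 6 h to 24 h the mean fell to 0.353 times its level in Col and to 0.414 times in ref6c (exact two-sided permutation test, p = 0.1 in each, the smallest that 3 against 3 libraries allow). The genotypes overlapped at each of the 4 times, with exact two-sided permutation p-values of 0.4, 0.2, 0.3 and 0.7 at 0, 6, 24 and 48 h. The order of 0 h and 6 h depended on the scaling. The size factors of median-of-ratios scaling, by which TPM is divided, had means of 0.392 and 1.44 in Col at 0 h and 6 h. In ref6c they were 0.342 and 1.41. Division of the mean sums by them puts 0 h above 6 h in both genotypes.

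The share of recovered reads, which is not divided by length, gave another order of the first 2 times. In Col it was 0.0465 ± 0.00445% (SD, n = 3) at 0 h, 0.0426 ± 0.00478% at 6 h, 0.0233 ± 0.00273% at 24 h and 0.0166 ± 0.000144% at 48 h. In ref6c it was 0.0525 ± 0.00332% at 0 h, 0.0458 ± 0.00186% at 6 h, 0.0289 ± 0.00212% at 24 h and 0.0196 ± 0.0015% at 48 h. By reads the mitochondrial share was thus highest at 0 h, where Col at 0 h and 6 h overlapped, and the fall from 6 h to 24 h held on both scales. By reads the 3 ref6c libraries lay above the 3 Col libraries at 0, 24 and 48 h; the counting intervals of the nearest libraries overlapped at 0 h and 24 h and were apart at 48 h, at 0.018% (0.0174 to 0.0186%) against 0.0167% (0.0162 to 0.0173%). Chloroplast rows went another way, from 4136 ± 156.8 summed TPM in Col at 0 h to 24899 ± 2522 at 48 h.

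**Figure D2:**
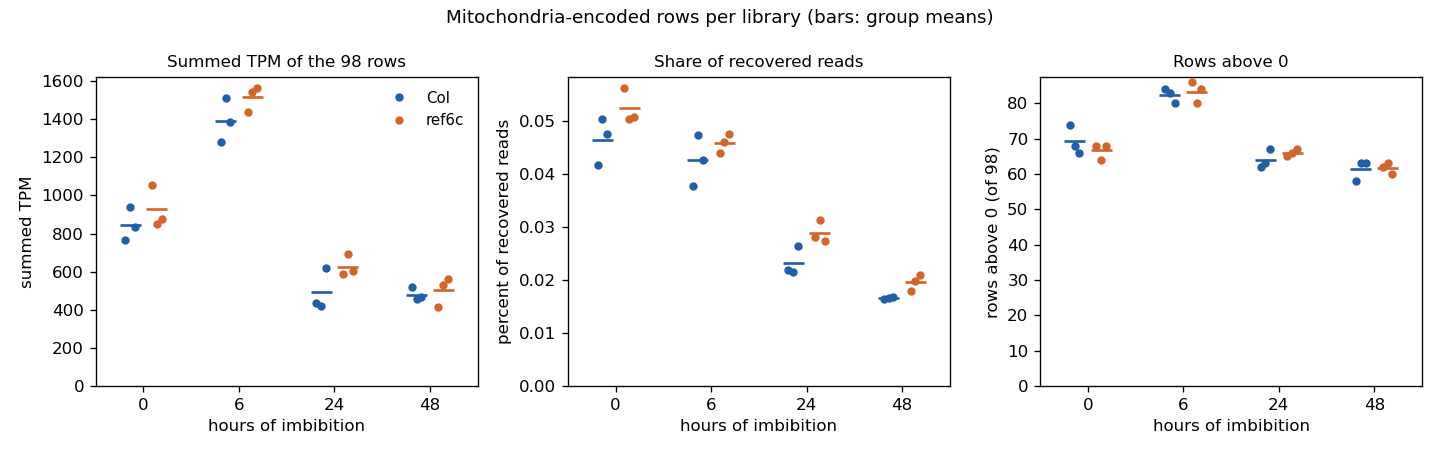
Summed TPM of the 98 ATMG rows, their share of recovered reads in percent and the number of rows above 0, by hours of imbibition; points are libraries (Col blue, ref6c orange), bars are means of 3 libraries, and every axis starts at 0. The sum and the number of rows peak at 6 h, with 6 h means of 1392 and 1514 TPM in Col and ref6c, whereas the share of reads falls from 0 h on.

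Most of the signal came from a few rows. The 15 rows with the highest mean over the 24 libraries made up 84% of the summed mean TPM, and ATMG00030, a row of 324 bases with no name, alone made up 26.2%. By reads the order was different, with 17.4% of ATMG reads in ATMG00090 (rps3 by length, a protein of the small ribosomal subunit) and 16.5% in ATMG00160 (cox2 by length, a copper-binding core subunit of cytochrome c oxidase). ATMG00665, the third by TPM at a mean of 75.5, is a row of 22 bases, the span of the short second part of nad5, and rests on 382 reads in all. The other 54 rows that passed the filter had means between 0.351 and 11.8 TPM.

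**Figure D3:**
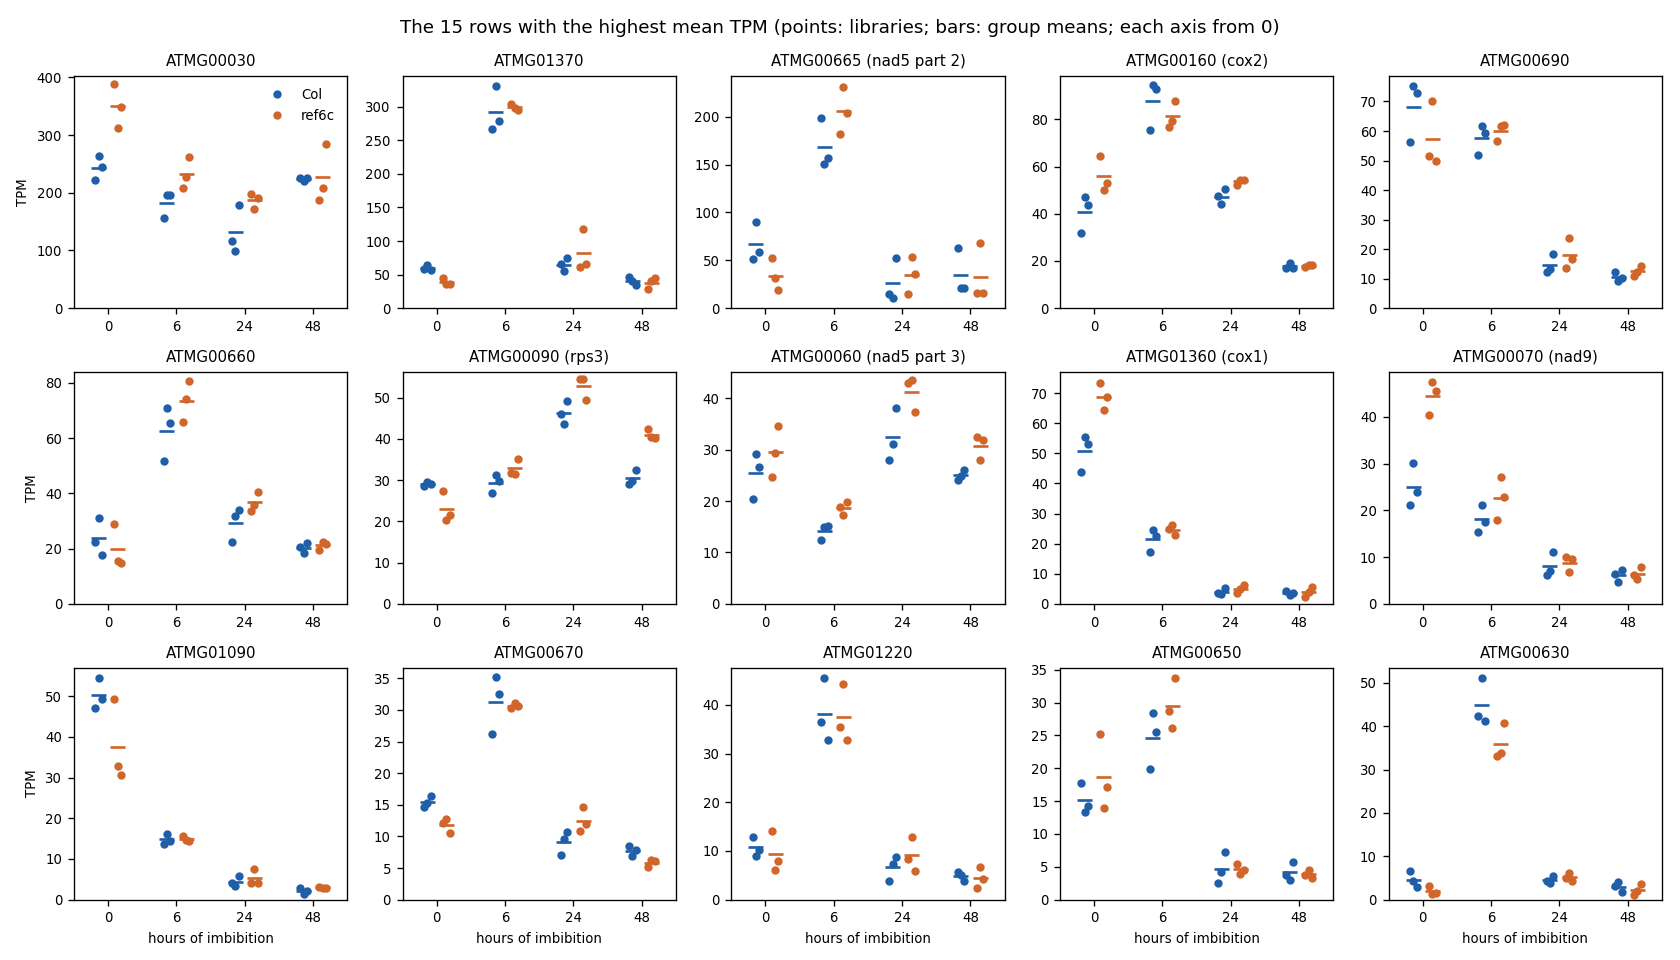
TPM of the 15 ATMG rows with the highest mean, by hours of imbibition; points are libraries (Col blue, ref6c orange), bars are means of 3 libraries, each axis starts at 0, and names in brackets rest on span length. ATMG01370 is at 267 TPM or more at 6 h and at 118 TPM or less at all other times, ATMG01360 is highest at 0 h, and ATMG00090 and ATMG00060 are highest at 24 h.

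Several time courses were seen among the abundant rows. The commonest was a peak at 6 h: the group mean was highest at 6 h for 54 of the 69 rows in Col and for 56 in ref6c, at 0 h for 12 and 9, at 24 h for 3 and 3, and at 48 h for 0 and 1, with the same time in both genotypes for 65 rows. Of the 45 rows that passed without their 6 h libraries, 30 were highest at 6 h in Col and 33 in ref6c. ATMG01370, a row of 336 bases, was at 57.8, 64.4 and 57.3 TPM in Col at 0 h, at 267, 331 and 279 TPM at 6 h and at 65.3, 55.1 and 74.5 TPM at 24 h. ATMG00630 was at 6.5, 4.3 and 2.97 TPM in Col at 0 h, at 42.3, 51 and 41.2 TPM at 6 h and at 4.28, 3.78 and 5.54 TPM at 24 h. In both rows the 6 h libraries stood apart from all others. ATMG00110 (ccmB by length, part of a transporter of cytochrome c maturation) followed the same course, with 29, 36.8 and 32.9 TPM at 6 h and at most 9.04 TPM in any other Col library. These peaks are on the TPM scale, and the rise from 0 h to 6 h depended on the scaling. With median-of-ratios scaling limma called 18 of the 69 rows higher and 27 lower in Col in that step, beside 40.6 and 37.3% of all genes. ATMG01370 was not called in Col with that scaling, at a log2 difference of 0.41.

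A second course was a fall from the dry seed on. ATMG01360 (cox1 by length, the catalytic core subunit of cytochrome c oxidase) was at 43.7, 55.5 and 53.2 TPM in Col at 0 h, 17.4, 24.5 and 22.4 TPM at 6 h, 3.53, 3.18 and 5.39 TPM at 24 h, and 4.36, 2.93 and 3.52 TPM at 48 h. In ref6c it was at 73.5, 64.3 and 68.5 TPM at 0 h, 24.9, 26.1 and 23 TPM at 6 h, and at most 6.27 TPM later. The 0, 6 and 24 h libraries did not overlap in either genotype. ATMG00070 (nad9 by length, a subunit of complex I) fell from 21.1, 30.1 and 23.9 TPM at 0 h to 6.13, 6.98 and 11.1 TPM at 24 h in Col. ATMG01090, whose nuclear copy is noted as ATP synthase 9, was at 47.1, 54.4 and 49.4 TPM in Col at 0 h and at 13.7, 16.2 and 14.5 TPM at 6 h.

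The third course was a peak at 24 h on the TPM scale. ATMG00090 (rps3 by length) was at 26.8, 31.3 and 29.8 TPM in Col at 6 h, at 46.1, 43.7 and 49.3 TPM at 24 h and at 29.1, 29.7 and 32.4 TPM at 48 h. In ref6c it was at 31.8, 31.5 and 35.2 TPM at 6 h, at 54.6, 54.4 and 49.4 TPM at 24 h and at 42.3, 40.5 and 40.3 TPM at 48 h. ATMG00060 (nad5 part 3 by length, from a membrane subunit of complex I) was at 12.4, 14.9 and 15.1 TPM in Col at 6 h and at 28, 31 and 38.2 TPM at 24 h. For both rows the 24 h libraries of a genotype lay above its 6 h libraries without overlap. Whether 24 h lay above 0 h depended on the scaling. With median-of-ratios scaling ATMG00090 had a log2 difference of -1.49 in ref6c from 0 h to 6 h. Its rise from 6 h to 24 h was 0.64 to 0.72 over the alternative settings tried. For ATMG00060 in Col these settings gave differences down to -2.59 from 0 h to 6 h and of 1.01 to 1.23 from 6 h to 24 h. ATMG00030, the most abundant row, followed none of the 3 courses: in Col it was at 222, 264 and 244 TPM at 0 h, 116, 99.2 and 179 TPM at 24 h, and 225, 221 and 226 TPM at 48 h.

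The steps of imbibition and the genotypes were tested with limma on log2(TPM + 1) over all 18481 genes that passed the filter, and differences on that scale are given ± SE with Benjamini-Hochberg adjusted p-values; a row was called at an adjusted p under 0.05. Nothing in the labels says that the 3 libraries of a group came from separate seed batches, so the p-values measure the spread between these libraries, which may be technical. The members passed a filter through their high groups, so the counts below describe them and are set beside the share of all genes called.

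From 6 h to 24 h nearly all rows fell in both genotypes. In Col 62 of 69 rows were called lower, where 35.2% of all genes tested were, and 2 were called higher, where 38% of all genes were. In ref6c 60 rows were called lower, beside 32.6% of all genes, and 2 higher, beside 35%. The same 59 rows were called lower in both genotypes. The median difference of the 69 rows was -1.56 in Col and -1.39 in ref6c, beside 0.00 in each for all genes. Of the 45 rows that passed the filter without the 6 h libraries, 39 were called lower in Col and 38 in ref6c. ATMG00630 fell by 3.06 ± 0.27 in Col (limma, adjusted p = 6.4e-10) and by 2.58 ± 0.27 in ref6c (adjusted p = 1.4e-08), and cox1 fell by 2.17 ± 0.21 in Col (adjusted p = 2.3e-09) and by 2.13 ± 0.21 in ref6c (adjusted p = 4e-09).

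The 2 rows called higher from 6 h to 24 h were the same in both genotypes. ATMG00060 (nad5 part 3) rose by 1.14 ± 0.13 in Col (limma, adjusted p = 3.5e-08) and by 1.11 ± 0.13 in ref6c (adjusted p = 6.5e-08). ATMG00090 (rps3) rose by 0.65 ± 0.09 in Col (adjusted p = 7.1e-07) and by 0.67 ± 0.09 in ref6c (adjusted p = 5.1e-07). In Col the 5 rows not called were ATMG00285, ATMG00513 (nad5 part 1 by length), ATMG00580 (nad4 by length), ATMG00830 (ccmFN1 by length) and ATMG01320 (nad2), with differences between -0.19 and 0.11. Of the 10 complex I rows, 6 were called lower in each genotype and 1 higher. Of the 45 unnamed rows 44 were called lower in Col and 42 in ref6c, and 22 and 21 of the 23 that passed without the 6 h libraries. The difference between these groups of rows was not tested. Unnamed rows are not all of unknown role, since the reference notes ATMG00180 as cytochrome C biogenesis 452 and ATMG01090 as ATP synthase 9. All 4 ATP synthase rows tested and both complex IV rows tested were called lower in each genotype.

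The size of the fall varied with the span of the row. Over the 69 rows the Spearman correlation between recovered span and the 6 h to 24 h difference was 0.43 in Col and 0.43 in ref6c, across rows that share the same libraries, and over the 45 rows that passed without the 6 h libraries it was 0.58 and 0.63. Of those 45 rows, the 8 of at least 2000 bases, a limit chosen after the values were seen, had a median difference of -0.32 in Col and -0.36 in ref6c, with 4 called lower in each. The 37 shorter rows had medians of -1.74 and -1.56, with 35 called lower in Col and 34 in ref6c. The long rows include the intron-bearing genes nad2, nad4 and nad7. Over all 69 rows the Spearman correlation between span and mean TPM was 0.04, and it was not computed for the 45 rows. Among the long rows nad7, nad4 and nad2 had low means of 3.27, 2.39 and 1.10 TPM, and rps3 and cox2 had 35.6 and 50.3 TPM. The log2(TPM + 1) scale understates changes of low rows, and its part in the relation to span was not tested.

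Most nuclear genes for the same machinery rose in this step. Of 46 nuclear genes tested, for subunits of complexes I to IV, cytochrome c, the ATP synthase, alternative oxidases and organelle RNA polymerases, 34 rose and 7 fell in Col from 6 h to 24 h, with a median of 0.73, and 32 rose and 6 fell in ref6c, with a median of 0.65. Beside them stand 38% of all genes higher and 35.2% lower in Col, 35% and 32.6% in ref6c, and an all-gene median of 0.00 in each. All 9 nuclear ATP synthase genes rose in both genotypes. ATP3, the gamma subunit of the mitochondrial ATP synthase, rose from 195 ± 5.5 to 446 ± 11.7 TPM in Col, by 1.19 ± 0.06 (limma, adjusted p = 9e-14), and COX6B, a subunit of cytochrome c oxidase, rose by 1.45 ± 0.06 (adjusted p = 1.7e-15). The 2 organelle RNA polymerases fell in both genotypes: MGP3 (AT1G68990), the mitochondrial phage-type polymerase, went from 29.2 ± 3.63 to 15.2 ± 2.34 TPM in Col, and AT5G15700, a polymerase of the same type, from 17.7 ± 2.67 to 6.33 ± 0.667 TPM.

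**Figure D4:**
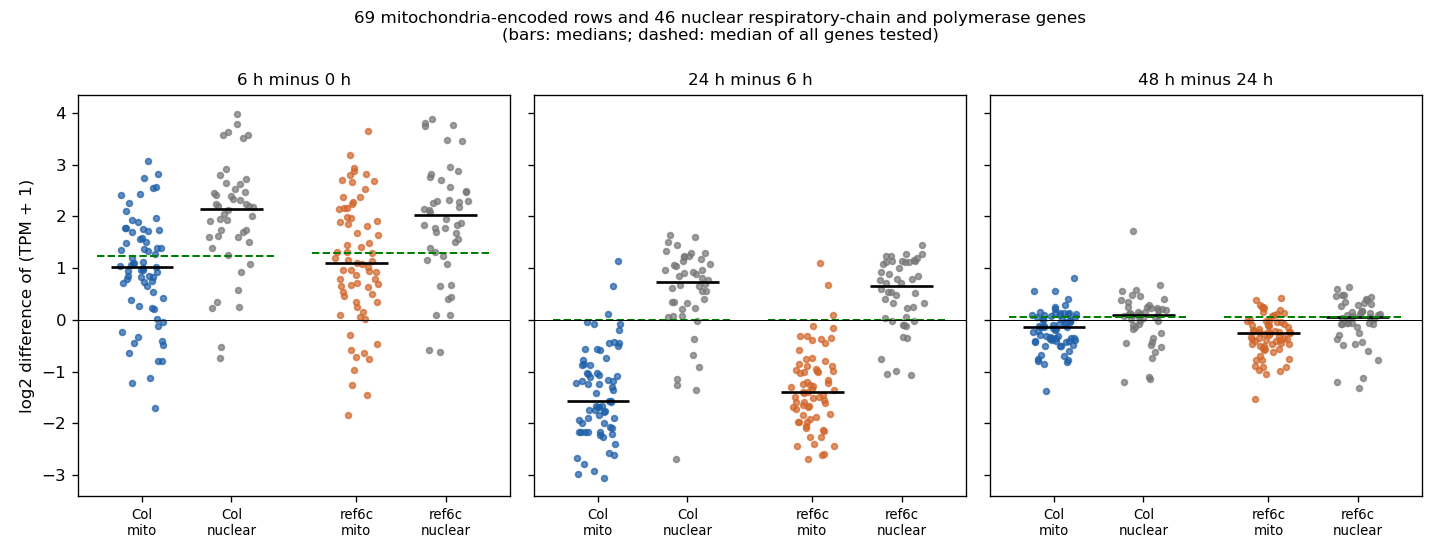
Differences on log2(TPM + 1) for the 3 steps of imbibition in the 69 ATMG rows (Col blue, ref6c orange) and in 46 nuclear genes of respiration and organelle transcription (grey); points are genes, bars medians and dashed lines the median of all 18481 genes tested. From 6 h to 24 h the ATMG median is -1.56 in Col while the nuclear median is 0.73.

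From 0 h to 6 h the result depended on the scaling. On the TPM scale 51 of 69 rows were called higher in Col, beside 75% of all genes tested, and 9 lower, beside 9.7%; in ref6c 53 were called higher, beside 76%, and 9 lower, beside 8.47%. All genes shifted on this scale, with a median difference of 1.23 in Col and 1.29 in ref6c, and the medians of the ATMG rows, 1.02 and 1.09, were below that. Of the 69 rows 28 in Col and 31 in ref6c lay above the median of all genes. With median-of-ratios scaling, which brings the median of all genes to 0.02 in Col and 0.00 in ref6c, 18 rows were called higher and 27 lower in Col, beside 40.6 and 37.3% of all genes, and 27 higher and 28 lower in ref6c, beside 39.7 and 38.1%. The nuclear genes of the same machinery were above the shift, with medians of 2.14 and 2.02 on the TPM scale. On that scale 28 of the 45 ATMG rows that passed without the 6 h libraries were called higher and 9 lower in Col. In ref6c 30 of these 45 rows were called higher and 9 lower. The other 24 of the 69 rows had to be high at 6 h.

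The direction at 6 h held under both scalings for 15 rows that were higher and 8 that were lower in both genotypes. The 8 lower rows were ATMG00030, ATMG00060 (nad5 part 3), ATMG00070 (nad9), ATMG00290 (rps4), ATMG00516 (nad1 part 3 by length), ATMG01080 (atp9), ATMG01090 and ATMG01360 (cox1). Of these, cox1 fell by 1.21 ± 0.21 in Col (limma, adjusted p = 9e-06) and ATMG01090 by 1.70 ± 0.20 (adjusted p = 3e-08). The 15 higher rows included ATMG00630, at 3.08 ± 0.27 in Col (limma, adjusted p = 1.9e-10), and 1 named row, ATMG00560 (rpl2). ATMG01410 and ATMG01050 were also among them, but both passed the filter only through their 6 h libraries and had to be high there. Others of the 15 may have passed in the same way, and they were not counted. ATMG00160 (cox2) had a difference of 1.09 ± 0.12 in Col on the TPM scale (adjusted p = 5.4e-09) and of -0.75 with median-of-ratios scaling (adjusted p = 1.1e-06), so its direction flipped. The 6 seed storage and maturation markers, all in the table, summed to 7.06 to 7.23% of TPM in Col at 0 h and to 2.4 to 2.8% at 6 h; their part in the scaling was not tested.

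From 24 h to 48 h most rows were not called, and nearly all calls were lower. In Col 15 rows were called lower, beside 28.3% of all genes, and 1 higher, beside 35.5%; in ref6c 22 were called lower, beside 24.5%, and 1 higher, beside 30.2%; 12 rows were lower in both genotypes. The largest difference was that of ATMG00160 (cox2), which went from 47.4, 44 and 50.4 TPM to 16.8, 19.2 and 17.2 TPM in Col and from 52.2, 54.4 and 54.5 TPM to 17.4, 18.5 and 18.3 TPM in ref6c. The times did not overlap, and the fall was by 1.36 ± 0.12 in Col (limma, adjusted p = 4.5e-10) and by 1.52 ± 0.12 in ref6c (adjusted p = 3e-10). ATMG00030 was the row called higher in Col, by 0.81 ± 0.16 (limma, adjusted p = 0.00014), and ATMG00590 the one in ref6c, by 0.42 ± 0.16 (adjusted p = 0.029). ATMG00590 was low in ref6c, at means of 0.194 TPM at 24 h and 0.604 TPM at 48 h. It rests on 181 reads over the 24 libraries and passed the filter only through its 6 h libraries.

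Between genotypes few rows differed. At 0 h 10 of 69 rows were called, 5 higher and 5 lower in ref6c, beside 2.07% of all genes higher and 10.6% lower; none of the 10 was called in a fit of the 0 h libraries alone. At 6 h 1 row was called higher and 0 lower, beside 5.89 and 10.1% of all genes. At 24 h 5 rows were called higher and 0 lower, beside 12 and 22.2%. At 48 h 4 were called higher and 2 lower, beside 22.1 and 34.1%.

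At 0 h the ref6c libraries differed from Col in both directions. ATMG00070 (nad9) was at 21.1, 30.1 and 23.9 TPM in Col and at 40.5, 47.5 and 45.6 TPM in ref6c, without overlap, a difference of 0.82 ± 0.19 (limma, adjusted p = 0.0066). ATMG00030 was at 222, 264 and 244 TPM in Col and at 388, 313 and 348 TPM in ref6c, also without overlap (0.52 ± 0.16, adjusted p = 0.038). ATMG00110 (ccmB) went the other way, from 9.04, 7.81 and 7.36 TPM in Col to 5.94, 2.84 and 3.17 TPM in ref6c (-0.91 ± 0.18, adjusted p = 0.0015). ATMG00150 was at 2.06, 2.26 and 2.6 TPM in Col and 0.934, 0.218 and 0.234 TPM in ref6c (-1.21 ± 0.26, adjusted p = 0.0029). The other calls at 0 h were ATMG00160, ATMG00290 and ATMG00516, higher by 0.35 to 0.46, and ATMG00090, ATMG00630 and ATMG01370, lower by -0.89 to -0.33. The fit of the 0 h libraries alone called 1 row of 69, which is not among these. Of the 10 calls only ATMG00070, ATMG00110 and ATMG00150 held in all other alternatives tried; ATMG00030 was lost on leaving out any of the 6 libraries.

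At 48 h 4 calls held under every alternative tried, and 3 of them were higher in ref6c. ATMG00090 (rps3), at 29.1, 29.7 and 32.4 TPM in Col and 42.3, 40.5 and 40.3 TPM in ref6c, differed by 0.42 ± 0.09 (limma, adjusted p = 0.0003). ATMG00580 (nad4 by length, a proton-pumping subunit of complex I) was at 1.43, 1.69 and 1.56 TPM in Col and at 1.95, 2.64 and 2.37 TPM in ref6c (0.37 ± 0.11, adjusted p = 0.0075). ATMG01280, whose nuclear copy is noted as similar to cytochrome c oxidase subunit II, was at 0.658, 0.388 and 0.265 TPM in Col and at 0.906, 0.919 and 1.28 TPM in ref6c (0.51 ± 0.14, adjusted p = 0.0044). None of the 3 overlapped between the genotypes. ATMG01410 was lower in ref6c, at 0.184, 0 and 0 TPM against 0.375, 0.736 and 0.755 TPM in Col (-0.61 ± 0.14, adjusted p = 0.00076), which is a difference of a few reads per library. The other calls, ATMG00670 (-0.35 ± 0.13, adjusted p = 0.025) and ATMG01320 (nad2; 0.28 ± 0.12, adjusted p = 0.041), were lost under 4 and 6 of the alternatives, both of them without Col replicate 1, Col replicate 3 or ref6c replicate 1, and ATMG01320 also without ref6c replicate 2.

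The calls at 6 h and 24 h were not stable. ATMG00060 (nad5 part 3) was the row called at 6 h, at 0.38 ± 0.13 (limma, adjusted p = 0.047), and 10 of 14 alternatives lost it. At 24 h ATMG00030, ATMG00060, ATMG00510 (nad7 by length), ATMG00670 and ATMG01410 were higher in ref6c by 0.35 to 0.55, and a fit of the 24 h libraries alone called none of them. The median difference of the 69 rows at 24 h was 0.18, beside -0.04 for all genes. The seed storage and maturation markers also differed there: they summed to 0.453 to 0.792% of TPM in Col and 1.53 to 2.96% in ref6c at 24 h, and to 0.4 to 0.492% and 2.03 to 2.21% at 48 h. The endosperm marker EPR1 was at a mean of 786 TPM in Col and 943 TPM in ref6c at 24 h and of 358 and 994 TPM at 48 h. Of the 2 seed coat markers, BAN was at 0 in all groups from 6 h on, and TTG2 was at 6.76 and 4.63 TPM in Col and ref6c at 24 h and at 5.59 and 3.52 TPM at 48 h. Both pollen markers had means of at most 0.066 TPM at these times. The part of these markers in the ATMG differences was not tested.

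**Figure D5:**
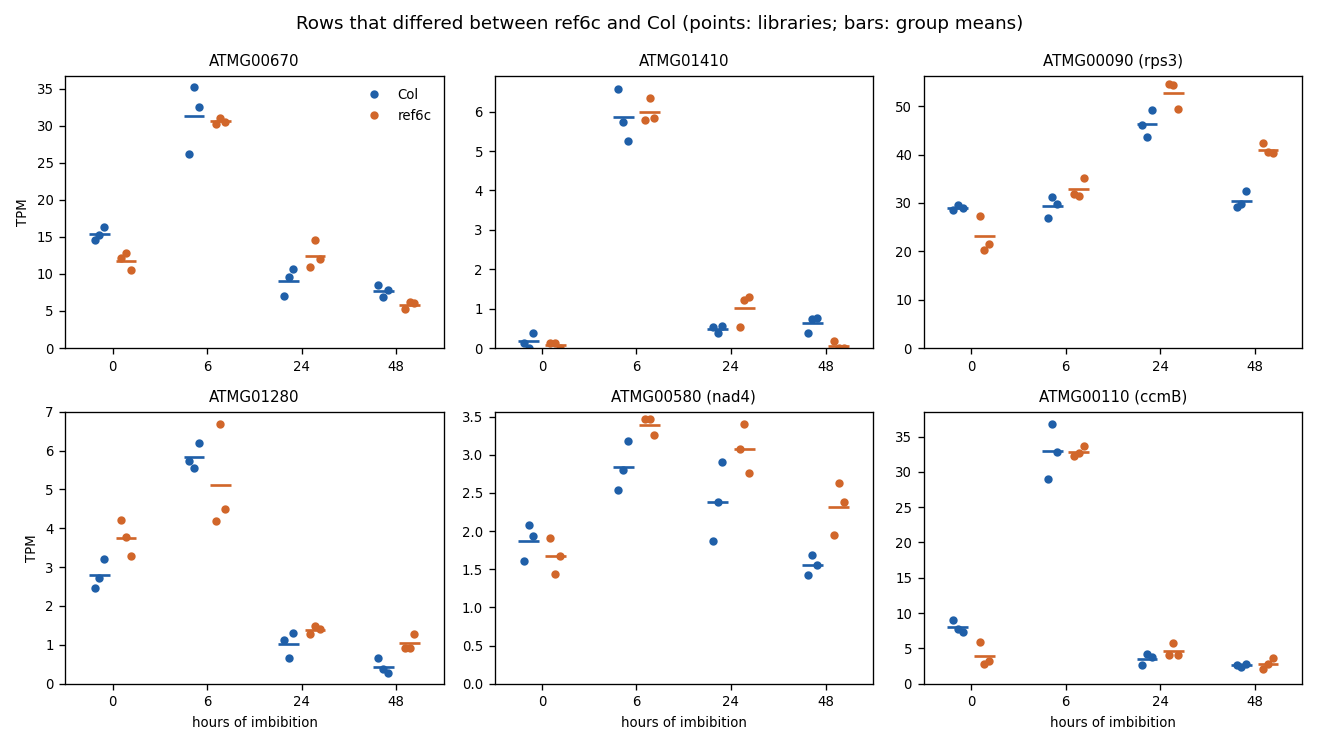
TPM of 6 ATMG rows called between genotypes or in an interaction, by hours of imbibition; points are libraries (Col blue, ref6c orange), bars are means of 3 libraries, and names in brackets rest on span length. ATMG00670 is higher in ref6c at 24 h and lower at 48 h, and ATMG00090 is lower in ref6c at 0 h and higher at 48 h, at 42.3, 40.5 and 40.3 TPM.

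The steps themselves differed between genotypes for 5 rows. From 24 h to 48 h ATMG00670 went from 10.9, 14.6 and 12 TPM to 5.2, 6.25 and 6.1 TPM in ref6c, and from 7.02, 9.53 and 10.7 TPM to 8.49, 6.84 and 7.85 TPM in Col. The times were apart in ref6c and overlapped in Col, and the interaction was -0.77 ± 0.18 (limma, adjusted p = 0.0026). ATMG01410 had an interaction of -1.03 ± 0.20 in the same step (adjusted p = 0.00034). These were 2 of 69 rows called, beside 22% of all genes tested. From 0 h to 6 h ATMG00090 and ATMG00110 had interactions of 0.49 ± 0.12 and 0.92 ± 0.26 and ATMG00160 one of -0.56 ± 0.16 (adjusted p = 0.014, 0.029 and 0.036), 3 rows beside 8.05% of all genes. From 6 h to 24 h limma called 0 of 69 rows, with 5 at an unadjusted p under 0.05, beside 15.8% of all genes called; voom on the recovered reads also called 0.

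Among nuclear genes of the machinery, alternative oxidases differed between genotypes at several times. They pass electrons from ubiquinol to oxygen without proton pumping. AOX1C was at 1.61 ± 0.108 TPM in Col and 0.0676 ± 0.117 TPM in ref6c at 6 h and at 6.43 ± 0.984 against 0.0452 ± 0.0783 TPM at 24 h, a difference of -2.82 ± 0.10 (limma, adjusted p = 1.5e-15). AOX1A was at 6.88 ± 0.809 TPM in Col and 0.985 ± 0.154 TPM in ref6c at 48 h (-1.99 ± 0.17, adjusted p = 9.4e-10). AOX2 was at 53.5 ± 1.94 TPM in Col and 22 ± 1.42 TPM in ref6c at 0 h (-1.25 ± 0.11, adjusted p = 2.9e-08). Over the 46 genes, 3 were higher and 6 lower in ref6c at 0 h, 0 and 7 at 6 h, 2 and 15 at 24 h, and 5 and 18 at 48 h, beside 2.07 and 10.6%, 5.89 and 10.1%, 12 and 22.2%, and 22.1 and 34.1% of all genes. The 2 organelle RNA polymerases were higher in ref6c at 48 h, MGP3 at 12.1 ± 0.47 against 9.46 ± 0.487 TPM and AT5G15700 at 5.33 ± 0.416 against 3.4 ± 0.14 TPM.

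The chromosome 2 loci that hold the mitochondrial copies were also highest at 6 h in summed TPM. The 87 loci in the aligned span summed to 112.7 ± 17 TPM in Col at 0 h, 309 ± 31.1 TPM at 6 h, 95.4 ± 16.3 TPM at 24 h and 65 ± 3.96 TPM at 48 h, and in ref6c to 95.4 ± 25.7, 327.2 ± 19.2, 115 ± 21 and 70.6 ± 11.7 TPM. All 6 h libraries lay above all others on the TPM scale. Division of the mean sums by the mean size factors of median-of-ratios scaling puts the loci higher at 0 h than at 6 h in both genotypes. Of 29 of these loci counted in the tests, 28 fell in Col and 26 in ref6c from 6 h to 24 h, beside 35.2 and 32.6% of all genes. Some of the 29 passed the filter only through their 6 h libraries and had to be high there, and the count without them was not made. AT2G07698, 64.7% of whose coding length aligned to the mitochondrial genome, at atp1, without a differing base, was at 12.9 TPM in Col at 0 h and 5.44 TPM at 6 h, where ATMG01190 (atp1, the alpha subunit of the ATP synthase) was at 1.74, 1.67 and 1.15 TPM and at 0.287, 0.507 and 0.53 TPM. Whether these reads come from nuclear or mitochondrial transcripts was not tested.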

How the data were processed

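The authors deposited a table of TPM values with 1 column per library; per the submitters' processing notes the tools were fastp 0.20.1 with HISAT2 2.1.10 and also DESeq2 1.26.0, on the build TAIR10, and the counting program, its strand setting and its treatment of multiply matching reads are not given in the sources used here. Per the labels' protocols total RNA was extracted with a Takara kit and libraries were made with a BGISEQ-500 kit. No per-sample column was left unused.

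Deposited TPM times the reference span gave whole reads, within 0.001 reads, for 99.97% of 462563 values above 0 in rows with a reference span, so TPM was divided by the whole gene span, introns included. Spans of ATMG rows were recovered from their own steps; the same search returned the true span for 99.0% of 1000 nuclear genes. Spans and reads of rows with very few reads are lower limits. Of 23826 IDs 23641 matched the RefSeq gene table of TAIR10.1. Mitochondrial and chromosome 2 sequences were aligned with BLAST 2.17.0.

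Genes at 1 TPM in at least 3 libraries (18481) were tested as log2(TPM + 1), a scale that understates changes of low genes. The test was limma 3.58.1 in R 4.3.3, in 1 fit of 8 group means with 16 residual degrees of freedom, two-sided, for 13 comparisons. The fit was checked on simulated data for 1 of these comparisons, ref6c minus Col at 48 h. Sums were compared with exact permutation tests in scipy 1.17.1. All ATMG rows passing the filter are counted, the 15 with the highest mean are shown in a figure, and those called between genotypes are described. Of the 15, the courses of ATMG00650, ATMG00660, ATMG00665, ATMG00690 and ATMG01220 are not described in the text. Of the nuclear lists at most 3 called genes with the smallest adjusted p per comparison are named, besides the polymerases and AOX genes. Further values of the polymerases and AOX genes were picked after they were seen. The sums over chromosome 2 loci take all 87 in the aligned span, the counts of calls the 29 of them numbered AT2G07660 to AT2G07840 that passed the filter; the rule would name all of these, and 3 loci are named here. Values over the 45 rows that pass without the 6 h libraries, and the split of rows by cover on chromosome 2, were added after the data were seen. The rows, lists, comparisons and alternatives were chosen with earlier results of these data known.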

Additional observations from a re-analysis of the deposited data

Results flagged for a closer look

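A step of imbibition differed between Col and ref6c, by an interaction term of limma, in 5 rows. From 0 h to 6 h ATMG00090 (rps3 by length) had an interaction of 0.49, ATMG00110 (ccmB by length) one of 0.92 and ATMG00160 (cox2 by length) one of -0.56. Each of these was lost under at least 4 of 20 alternatives, a fit of only the groups compared among them. From 24 h to 48 h ATMG00670 had an interaction of -0.77 and ATMG01410 one of -1.03. Both held under all 20 alternatives, with adjusted p-values of at most 0.027 and 0.022. ATMG01410 was at 1.28 TPM or less in all libraries of these times.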

How the results depend on the processing

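No difference from 6 h to 24 h of a row described was reversed under any alternative, and with median-of-ratios scaling 58 rows in Col and 59 in ref6c were called lower in that step. Counts of ATMG rows called moved by over 1.5 times as follows. With a filter at 5 TPM, which leaves fewer rows to test, 32 and 33 rows were called from 0 h to 6 h and 37 and 35 from 6 h to 24 h in Col and ref6c. Counting only rows that pass without the 6 h libraries, an alternative chosen after seeing the data, gave 37, 39, 41 and 40. The calls between genotypes were the least stable: at 0 h median-of-ratios scaling gave 20 rows and a fit of only the groups compared 1; at 6 h a pseudocount of 0.1, median-of-ratios scaling and voom on recovered reads gave 0, no filter 2 and only the groups compared 3; at 24 h a pseudocount of 0.1 gave 3 and only the groups compared 0. For the interaction from 0 h to 6 h median-of-ratios scaling gave 7 rows and only the groups compared 1, and for that from 6 h to 24 h only the groups compared gave 1. The cause was not tested.

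Leaving out each library in turn gave 4 to 16 rows at 0 h, 0 to 1 at 6 h, 1 to 6 at 24 h and 5 to 10 at 48 h between genotypes, 56 to 60, 60 to 64 and 12 to 20 for the 3 steps in Col, 58 to 63, 61 to 62 and 16 to 24 in ref6c, and 1 to 6, 0 to 1 and 2 to 3 for the interactions. The summed TPM of ref6c minus that of Col lay between 15.6 and 126.7 at 0 h, 65.3 and 181.9 at 6 h, 100.4 and 198.3 at 24 h and -7.42 and 65.3 at 48 h. At 0 h it was 561.4 with median-of-ratios scaling and -26.3 without ATMG00030, in place of 79.9; at 48 h the difference in share of reads was 0.0030 percentage points. The median number of rows above 0, 66.5, became 47 with at least 3 recovered reads, also chosen after seeing the data.

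From 0 h to 6 h median-of-ratios scaling turned the difference of ATMG00160 to -0.75 in Col and -1.49 in ref6c, of ATMG00650 to -1.14 and -1.32, of ATMG00660 to -0.44 and -0.087, of ATMG00670 to -0.84 and -0.65, and, in Col, of ATMG00665 to -0.50 and ATMG01220 to -0.040. In ref6c it turned that of ATMG00090 to -1.49, and voom gave -0.082 for ATMG00090 and -0.057 for ATMG00160. Of 101 differences of rows checked singly, with and without a gene name, 57 kept their call under all alternatives, 36 lost it at least once and 11 were reversed at least once. The replicate numbers did not pair the libraries, with correlations of deviations from -0.19 to 0.39 over 30 pairs, 10 of them over 0.1; with a replicate block 14, 2, 5 and 6 rows were called between genotypes. The 3106 to 9956 ATMG reads per library limit the precision of rows with few reads.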
